A study of Mus musculus with 9 samples.

Results

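The genes described are the 10 mouse DUSP MAP kinase phosphatases, Dusp1, Dusp2, Dusp4, Dusp5, Dusp6, Dusp7, Dusp8, Dusp9, Dusp10 and Dusp16, of 21951 protein-coding genes in the annotation used. They were taken by name as the DUSP family members that act on MAP kinases, and a receptor peak was assigned to a gene when its summit lay in the GENCODE gene body or within 20 kb of it. The data are ChIP-nexus peaks for the glucocorticoid receptor (GR) and the mineralocorticoid receptor (MR) in N2A cells, a mouse neuroblastoma line. ChIP-nexus uses an exonuclease to digest each precipitated fragment back to the protein crosslinked on it. All cultures were transiently transfected with both EGFP-GR and mCherry-MR in medium with charcoal-stripped serum, and each receptor was precipitated through its tag. There were 3 treatments, which were vehicle, 100 nM corticosterone (CORT) for 20 minutes, and the same CORT exposure followed by washing and 40 minutes without steroid (washout). Input chromatin was collected for each treatment. Both receptors came from plasmids, N2A cells have their own GR that carries no tag, and the lists do not show which cells took up both plasmids.

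DUSP MAP kinase phosphatases remove phosphate from the threonine and the tyrosine that switch a MAP kinase on, and so end its signal. Dusp1, Dusp2, Dusp4 and Dusp5 encode nuclear enzymes whose genes are induced quickly by growth factors and stress, and Dusp1 is a classical glucocorticoid-induced gene. Dusp6, Dusp7 and Dusp9 encode cytoplasmic enzymes that prefer ERK. Dusp8, Dusp10 and Dusp16 encode enzymes that prefer the stress-activated kinases JNK and p38. GR and MR are ligand-activated transcription factors that bind the same DNA element, the glucocorticoid response element (GRE), an inverted repeat of AGAACA.

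Each receptor and treatment had 1 MACS2 list, made from 3 combined replicates, so no value below has a replicate error. The GR lists held 64 peaks after vehicle, 10602 after CORT and 246 after washout. The MR lists held 73, 14638 and 4885. Peak strength is given as the −log10 p of the peak against input. This value grows with sequencing depth. The deposited files hold no read counts and depth differed between libraries, so peaks were ranked within their own list and strengths were not compared between lists. The 10602 GR CORT peaks shared 1209 distinct values of −log10 p and the 14638 MR CORT peaks shared 1428, so many ranks are tied. Where a list has no peak, binding was below what its depth and threshold could show. Intervals on percentages are 95% Wilson intervals and cover counting error only. All lists were called against input, and peaks of the same gene share a locus and are not replicates of each other.

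After CORT, both receptors had peaks at 7 sites of 6 of these genes, and the sequences at those sites are shown first because both receptors had a peak there. Sequences are from the forward strand of GRCm38 (mm10), although Dusp1, Dusp8 and Dusp16 are on the minus strand. They lie around the summit of the MR peak after CORT, and capitals mark the best GRE match, or else an AP-1 motif or a GRE half-site. At the Dusp6 site 29 bases around the match are shown. The AP-1 motif TGACTCA is bound by the Fos and Jun proteins, which MAP kinases activate.
Dusp1, 4.3 kb upstream, half-site, chr17:26512725-26512805: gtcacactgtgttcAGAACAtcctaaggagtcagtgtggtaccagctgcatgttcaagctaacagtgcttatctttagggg
Dusp2, 3.6 kb upstream, AP-1 then GRE, chr2:127332428-127332564: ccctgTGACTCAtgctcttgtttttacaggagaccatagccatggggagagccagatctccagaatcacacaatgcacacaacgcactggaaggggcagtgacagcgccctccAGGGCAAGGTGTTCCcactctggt
Dusp2, 2.2 kb upstream, half-site, chr2:127333856-127333987: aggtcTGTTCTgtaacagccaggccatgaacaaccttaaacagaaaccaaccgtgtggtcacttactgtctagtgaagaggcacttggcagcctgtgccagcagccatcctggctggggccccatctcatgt
Dusp4, in the gene, AP-1, chr8:34814721-34814825: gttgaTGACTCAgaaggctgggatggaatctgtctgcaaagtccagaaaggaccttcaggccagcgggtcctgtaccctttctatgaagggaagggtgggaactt
Dusp5, in the gene, GRE, chr19:53532500-53532580: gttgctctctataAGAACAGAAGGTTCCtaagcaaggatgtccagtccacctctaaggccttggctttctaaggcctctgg
Dusp6, 3′ UTR, GRE, chr10:99266603-99266631: tagggacAGGAGCATCTGTTCTttaaggc
Dusp16, in the gene, GRE, chr6:134730749-134730829: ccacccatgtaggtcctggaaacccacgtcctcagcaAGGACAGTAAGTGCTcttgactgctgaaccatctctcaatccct

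The GRE searched was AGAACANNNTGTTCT on both strands, allowing 3 mismatches over the 12 fixed bases. At Dusp5 the best match, AGAACAGAAGGTTCC at chr19:53532513-53532527, had 2 mismatches. It lay inside the GR peak at chr19:53532470-53532574 but outside the MR peak at chr19:53532532-53532606. The matches at Dusp2, Dusp6 and Dusp16 had 3. No match lay within 100 bp of the MR summit at the shared sites of Dusp1, Dusp4 and the nearer one of Dusp2. The Dusp4 window held the AP-1 motif TGACTCA 56 bp from the MR summit. The windows at Dusp1 and the nearer Dusp2 site held a half-site, AGAACA or its reverse complement TGTTCT. At Dusp1 the half-site was 23 bp from the MR summit and inside both the GR and the MR peak. At the nearer Dusp2 site it was 83 bp from the MR summit and outside both peaks.

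Sites with a peak of 1 receptor are shown where they hold the closest GRE match, the peak nearest to the start of its gene, or the strongest GR peak of a gene. The first pair was picked after its values were seen. No sequence is shown for the strongest peaks of Dusp8 and Dusp10, whose windows held neither a GRE nor an AP-1 motif.
Dusp2, 11.6 kb upstream, MR only, 2 GRE matches, chr2:127324511-127324612: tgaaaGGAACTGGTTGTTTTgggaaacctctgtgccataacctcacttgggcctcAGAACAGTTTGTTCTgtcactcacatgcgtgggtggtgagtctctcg
Dusp6, 92 bp upstream, MR only, GRE, chr10:99263099-99263179: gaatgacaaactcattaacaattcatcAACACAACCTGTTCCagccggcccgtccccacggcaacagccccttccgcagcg
Dusp16, GR only, 2 AP-1 motifs, chr6:134734030-134734149: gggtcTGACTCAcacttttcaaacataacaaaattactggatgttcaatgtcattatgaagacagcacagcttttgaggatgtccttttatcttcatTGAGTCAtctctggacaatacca

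The exact palindrome AGAACAGTTTGTTCT lay at chr2:127324566-127324580, 11.6 kb upstream of Dusp2. It had 0 mismatches, and its centre was 1 bp from the MR summit after CORT. It was the only match without mismatches at the peaks of these genes, and no GR peak was listed there.

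After CORT, 8 of the 10 genes had a GR peak, with 14 peaks in all, and 7 had an MR peak, with 16 peaks. Over all protein-coding genes 26.3% had a GR CORT peak and 30.2% had an MR CORT peak within the same distance. After washout no member had a GR peak, against 1.02% of protein-coding genes, and 5 had an MR peak, with 6 peaks, against 14.2%. Within 5 kb the number with an MR washout peak was 3, against 9.41% of protein-coding genes at that distance. With −log10 q of at least 5 it was 2, and no share over all genes was computed at that threshold. Of the 6 peaks 1 was nearer to the start of Ergic1 than to that of Dusp1. After vehicle neither receptor had a peak at any of the 10 genes, against 0.109% of protein-coding genes for GR and 0.109% for MR. The genes with peaks of both receptors after CORT were Dusp1, Dusp2, Dusp4, Dusp5, Dusp6, Dusp8 and Dusp16, and Dusp10 had a GR peak alone. Dusp7 and Dusp9 had no peak in any list.

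The median window was 53.0 kb for these genes and 57.4 kb for all protein-coding genes. Their windows held 21.3 GR CORT peaks per Mb against 5.86 per Mb in the windows of all protein-coding genes. For MR the densities were 24.4 and 8.0 per Mb after CORT, and 9.15 and 2.62 per Mb after washout. At least 2 peaks were listed for 4 members with GR and 5 with MR after CORT, against 12.02% and 15.6% of protein-coding genes. The family was small and was chosen with results of these data known, so these counts describe it and no test was made.

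**Figure D1:**
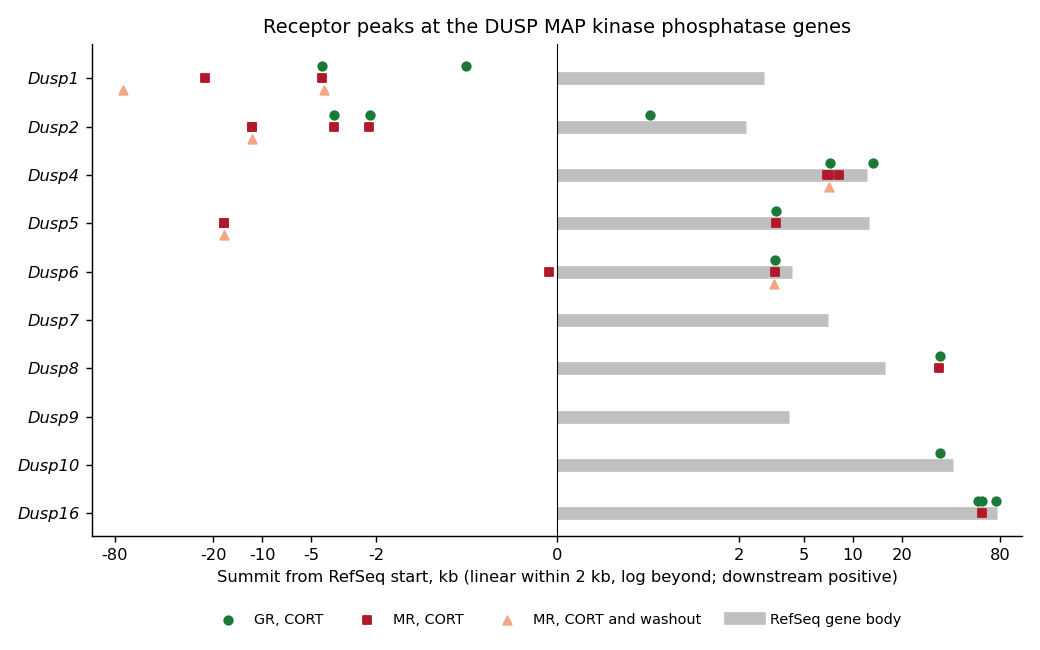
Position of every peak summit at the 10 genes, in kb from the RefSeq transcription start (linear within 2 kb of it and logarithmic beyond, downstream positive), with RefSeq gene bodies in grey. Circles are GR after CORT, squares MR after CORT and triangles MR after washout. Dusp7 and Dusp9 have no symbol, and GR after washout and both vehicle lists gave none.

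The nuclear, inducible phosphatase genes held most of the peaks. All 4 had peaks of both receptors after CORT and an MR peak after washout, with 8 GR peaks and 12 MR peaks after CORT and 5 MR peaks after washout. Of the 4, Dusp4 alone had a washout peak with −log10 q of at least 5, with 6.48. The washout peaks of Dusp1, Dusp2 and Dusp5 had 1.96 to 4.54, and 1 of those of Dusp1 was nearer to the start of Ergic1. Of the 3 genes for cytoplasmic ERK phosphatases, Dusp6 alone had peaks. All 3 genes for JNK and p38 phosphatases had a GR peak after CORT, 2 had an MR peak, and none had an MR peak after washout. Over all protein-coding genes the shares were 26.3% for GR and 30.2% for MR after CORT and 14.2% for MR after washout, so with 3 genes a count of 0 after washout is no result about the role. The windows of Dusp1, Dusp10 and Dusp16 were 96.5, 102 and 117 kb long, longer than the median. The peaks near Dusp8 lay closer to the start of another gene, Mob2. The 3 roles were not compared by a test.

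Dusp4 (ENSMUSG00000031530) lies on the plus strand at chr8:34807297-34819894 and had the strongest peaks of the family in both CORT lists. The GR CORT peak at chr8:34814580-34814998 ranked 123 of 10602, within the strongest 1.16% of its list, and its −log10 p was 26.7. An MR CORT peak at chr8:34814709-34814963 had a −log10 p of 29.6 and ranked 199 of 14638, within the strongest 1.36%. Both are intronic, and the summits lay 7231 and 7175 bp downstream of the RefSeq start, 56 bp apart. The GR peak was 419 bp wide and also covered an adjoining MR CORT peak of 50 bp at chr8:34814596-34814645, with a −log10 p of 16.5. The MR washout peak at the site had its summit 2 bp from the stronger MR CORT summit, a −log10 p of 11.2 and rank 1548 of 4885. This site had GR after CORT and MR both after CORT and after washout, with the AP-1 motif printed above and no GRE match within 100 bp of any of these summits. Elsewhere at Dusp4, an MR CORT peak lay 8198 bp downstream of the start, with a −log10 p of 8.60. Beyond the gene end a weak GR CORT peak ranked 10597, close to the end of its list, and its −log10 p was 4.49.

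Dusp1 (ENSMUSG00000024190) is on the minus strand, and GENCODE extends it to chr17:26505590-26562128 through a long transcript, 53656 bp further upstream than the RefSeq start at 26508472. Distances here are from the RefSeq start, so peaks annotated as intronic lie upstream of the usual start. Both receptors had a CORT peak 4.3 kb upstream, for GR at chr17:26512682-26512827 with a −log10 p of 8.76 and for MR at chr17:26512713-26512788 with 10.6. An MR washout peak overlapped both, with a −log10 p of 7.69 and a summit 4176 bp upstream. A GR CORT peak without MR lay 1006 bp upstream, with a −log10 p of 7.38 and a GRE with 3 mismatches 15 bp from its summit. An MR CORT peak without GR lay 22454 bp upstream, with a −log10 p of 8.60. The remaining peak, for MR after washout, lay 71314 bp upstream and was nearer to the start of Ergic1. The best-ranked peak of Dusp1, that of MR 4.3 kb upstream after CORT, was within the strongest 32.1% of its list.

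Dusp2 (ENSMUSG00000027368) lies at chr2:127336159-127338376 on the plus strand and had 3 GR and 4 MR peaks after CORT. At 3.6 kb upstream the GR peak had a −log10 p of 12.8 and ranked 1660, and the MR peak had 16.5 and ranked 1385, with summits 3 bp apart. At 2.2 kb upstream the GR peak had a −log10 p of 7.57 and the MR peak 11.98, with summits 13 bp apart. Neither shared site had an MR peak after washout. The site 11.6 kb upstream that holds the exact palindrome had an MR CORT peak and no listed GR peak. That MR peak had a −log10 p of 13.7 and rank 2379 of 14638. The MR washout peak of Dusp2 overlapped this site, with a −log10 p of 5.78 and rank 4712 of 4885, among the weakest of its list. The washout peak covered the palindrome, but its summit lay 48 bp from the palindrome's centre. That summit fell in the other GRE match, with 3 mismatches, at chr2:127324516-127324530. A weaker MR peak (7.42) lay 11478 bp upstream, and a GR peak (7.57) lay 1024 bp downstream of the start in a noncoding exon. Dusp2 thus had an upstream cluster in which the nearer sites had peaks of both receptors after CORT and the farther ones had MR peaks only.

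Dusp5 (ENSMUSG00000034765), whose product acts on ERK in the nucleus, lies at chr19:53529109-53542431 on the plus strand. Its intronic site had the closest pair of summits in the family, 2 bp apart, with a −log10 p of 11.4 for GR and 9.17 for MR. This site had no MR peak after washout. The MR washout peak of Dusp5, with a −log10 p of 9.01, lay 17170 bp upstream. It overlapped an MR CORT peak with a −log10 p of 7.42, and another MR CORT peak with 5.31 lay 17283 bp upstream. No GR peak was listed at the upstream sites.

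Dusp6 (ENSMUSG00000019960) is a feedback inhibitor that is itself induced by ERK, and lies at chr10:99263231-99267489 on the plus strand. A site in its 3′ UTR had peaks of both receptors after CORT, with summits 18 bp apart. The −log10 p was 15.7 for GR, at rank 861, and 24.5 for MR, at rank 415. The MR washout peak there had a −log10 p of 17.8 and ranked 424 of 4885, the strongest washout peak of the family. This was the only MR washout peak of the 6 within the strongest 10% of its list. A second MR CORT peak had its summit 92 bp upstream of the start, with a −log10 p of 9.82 and a GRE with 3 mismatches centred 6 bp from the summit. It was the peak of the family closest to the RefSeq start of its own gene, and no GR peak overlapped it.

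Among the JNK and p38 phosphatase genes, Dusp16 (ENSMUSG00000030203) had most peaks. It lies at chr6:134715468-134792625 on the minus strand, and all its peaks were far from the start, between 58519 and 76081 bp into the gene. One intronic site had both receptors, with a −log10 p of 7.38 for GR and 7.83 for MR and summits 19 bp apart. The strongest GR peak, with a −log10 p of 11.4, overlapped no MR peak and had 2 AP-1 motifs within 100 bp of its summit, 1 of them inside the peak, and the third GR peak, in the 3′ UTR, had 8.57. Dusp10 (ENSMUSG00000039384), at chr1:184013302-184075636, had a single intronic GR peak 34200 bp downstream of the start, with a −log10 p of 9.20. At Dusp8 (ENSMUSG00000037887), at chr7:142079490-142095843, a GR peak with a −log10 p of 12.6 and an MR peak with 7.44 lay beyond the gene end. These were 46 and 546 bp from the start of Mob2, the neighbouring gene, and are closer to it than to Dusp8.

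**Figure D2:**
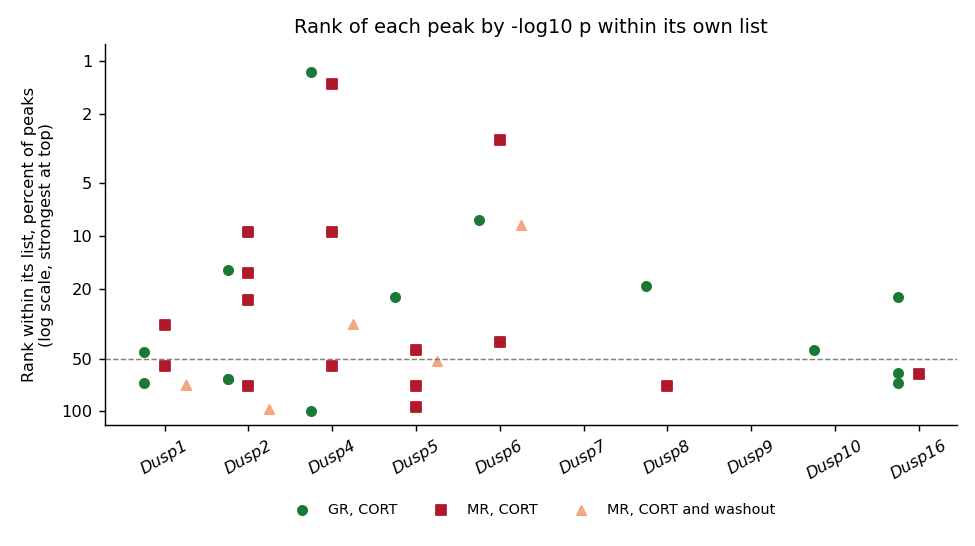
Rank of each peak by −log10 p within its own list, as a percentage of the list on a logarithmic scale with the strongest at the top. Each symbol is 1 peak and the dashed line marks the middle of the list. The best-ranked GR and MR CORT peaks of Dusp4 lie within the strongest 2%, and another GR CORT peak of Dusp4 lies at the bottom of its list.

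Ranked within their lists, the peaks of the family ran from the strongest 1.16% to 99.95% for GR after CORT and from the strongest 1.36% to 93.9% for MR after CORT. Of the 14 GR CORT peaks 8 ranked above the middle of the list and 2 in its strongest 10%, and of the 16 MR CORT peaks 9 and 4. The median −log10 p was 8.98 at these genes and 8.66 over the list for GR, and 9.49 and 9.17 for MR. After washout the 6 MR peaks had a median of 8.35 and the list 9.57, and 2 of the 6 ranked above the middle.

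Whether the receptors used the same places was asked by overlap of at least 1 bp. Of the 14 GR CORT peaks 7 overlapped an MR CORT peak (50%, 26.8% to 73.2%), against 61.0% of the whole GR list. Of the 16 MR CORT peaks 8 overlapped a GR CORT peak (50%, 28% to 72%), against 47.6% of the whole MR list. At the 7 shared sites the GR and MR summits were 2 to 56 bp apart with a median of 17 bp, and the median over all 6471 overlapped GR CORT peaks was 26 bp. Merged by overlap, the peaks of all lists made 23 sites. GR alone after CORT was listed at 7 of them, MR alone after CORT at 8, both at 7, and 1 had MR after washout without a CORT peak.

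**Figure D3:**
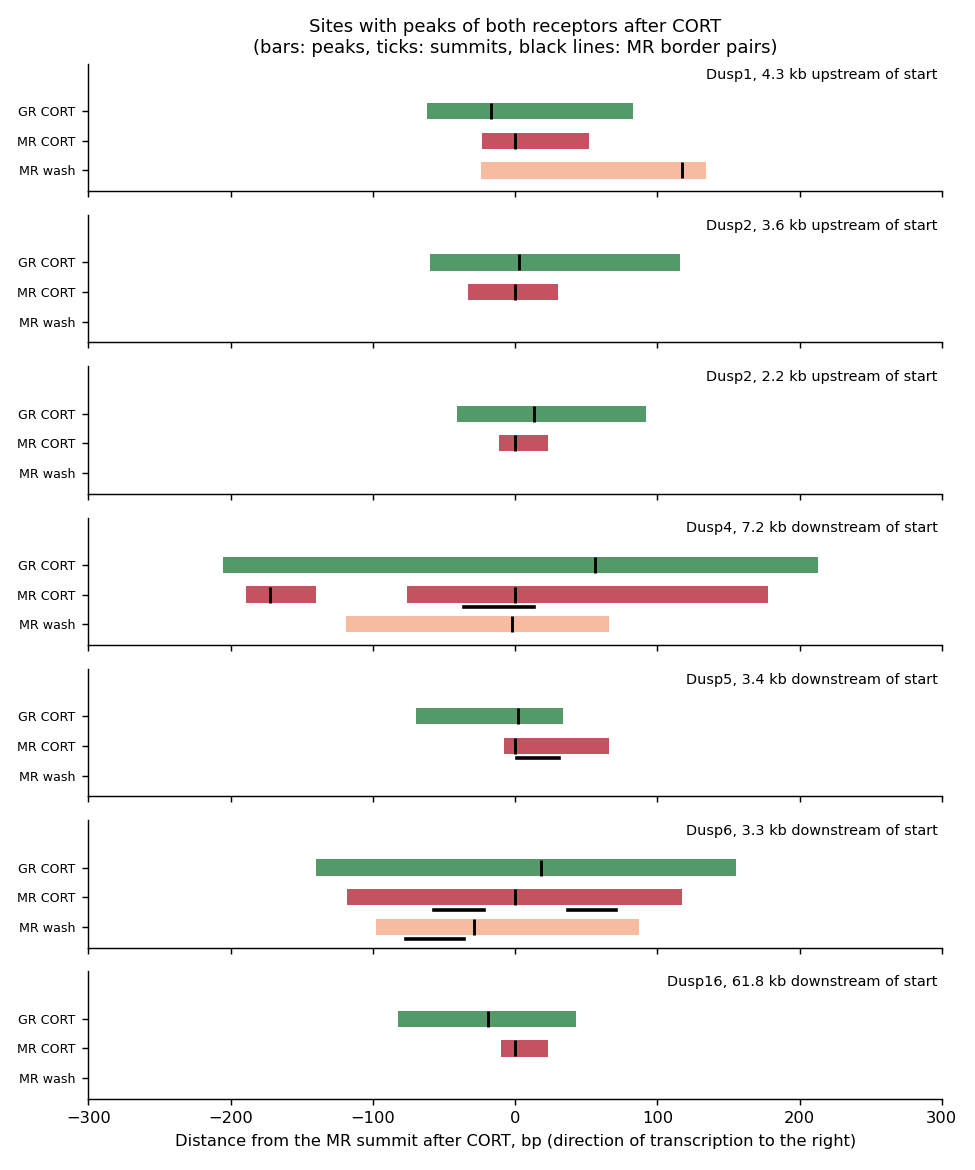
Extent of the peaks at the 7 sites where GR and MR peaks overlapped after CORT, in bp from the summit of the strongest MR CORT peak, with transcription running to the right. Bars are peaks, ticks are summits and black lines are MR border pairs. GR and MR summits lie 2 to 56 bp apart, and MR washout peaks are present at Dusp1, Dusp4 and Dusp6.

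The washout condition asked which sites still had a peak after CORT was removed. An MR washout peak overlapped 5 of the 16 MR CORT peaks (31.2%, 14.2% to 55.6%), against 24.6% of the whole list. A GR washout peak overlapped 0 of the 14 GR CORT peaks, which allows a share of up to 21.5% by the Wilson interval, against 2.13% of the whole list. Among the 7 shared sites 3 had an MR washout peak, at Dusp1, Dusp4 and Dusp6, and among the 8 sites with MR alone 2 had one, at Dusp2 and Dusp5. None of the 7 sites with GR alone had one. The share with an MR washout peak was not computed over the whole lists for these 3 classes of site. These counts are therefore no result about these genes.

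A GRE with at most 3 mismatches lay within 100 bp of the summit of 6 of the 14 GR CORT peaks (42.9%, 21.4% to 67.4%), against 37.7% of the list. The same was true of 9 of the 16 MR CORT peaks (56.2%, 33.2% to 76.9%), against 39.9% of the list. Such a match need not lie inside the peak. At Dusp5 the matches counted for the intronic MR peak and for the one 17185 bp upstream lay outside those peaks. Windows of the same length 1000 bp from the summits of each list held such a match in 14.6% (GR) and 15.2% (MR). The AP-1 motif, TGACTCA or its reverse complement TGAGTCA, occurred within 100 bp of the summit at 2 of the 14 GR peaks (14.3%, 4.01% to 39.9%) and 4 of the 16 MR peaks (25%, 10.2% to 49.5%). The lists had it at 8.73% and 7.81% of peaks, and the flanking windows at 3.91% and 3.94%. By this window the GR peaks were those of Dusp2 at 3.6 kb upstream and of Dusp16 at 58519 bp, and the MR peaks were at Dusp1, Dusp2, Dusp4 and Dusp5. The window is not the peak itself. The wide Dusp4 GR peak encloses TGACTCA at chr8:34814726-34814732 farther from its summit. The Dusp2 motif at chr2:127332433-127332439 lies outside both the GR and the MR peak there. The Dusp1 motif at chr17:26530970-26530976 lies outside its MR peak, and the MR peaks of Dusp4 and Dusp5 enclose theirs. A half-site AGAACA on either strand, which was searched after seeing the data and can lie inside a GRE match, was present in the same window at 7 of the 14 GR peaks and 9 of the 16 MR peaks, against 32.5% and 34.2% of the lists. The interval for the GRE share of either receptor includes the share of its list. The AP-1 interval at MR peaks starts above the share of the list. It rests on 4 peaks, of which those at Dusp1 and Dusp2 do not enclose the motif. The loci of these 4 peaks partly coincide with the GR ones, and the difference was not tested.

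Border pairs, the stretches between exonuclease stops on the opposite strands that MACE called from the same libraries, gave a finer position at 3 genes. Of the 3285 MR border pairs after CORT 5 lay in the windows of these genes, at Dusp4, Dusp5 and Dusp6, and all 5 lay within a peak. The Dusp4 pair was chr8:34814749-34814798, with its midpoint 11.5 bp from the MR summit. The Dusp5 pairs were 34 bp wide at the upstream site and 31 bp wide at the intronic site shared with GR. Dusp6 had 2 pairs in its 3′ UTR site, of 36 and 35 bp, and the latter enclosed the GRE match printed above, the only 1 of the 5 pairs to hold a match. After washout the single MR pair, at chr10:99266489-99266530, lay in the same Dusp6 site. Pairs were found in 4 of the 16 MR CORT peaks (25%, 10.2% to 49.5%), against 10.4% of the list, and in 1 of the 6 MR washout peaks, against 9.87%. The inputs had 1 pair per treatment in these windows, at Dusp16, Dusp9 and Dusp10, and no site of the family held an input pair. With so few input pairs, and with peaks called against input, this says little about the sites. No GR pair was found at these genes, but the GR border list after CORT that was analysed here holds 139 pairs without p-values. It is shorter than the list described for the study, so the lack of a GR pair here carries no information on GR binding.

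Apart from the Dusp6 peak 92 bp upstream, no summit lay within 1000 bp of the RefSeq start of its DUSP gene. GR CORT summits lay just beyond that distance, 1006 bp upstream at Dusp1 and 1024 bp downstream at Dusp2. The Dusp1 one was 959 bp from the nearest GENCODE transcript start of Dusp1. By the GENCODE annotation, 7 of the GR CORT peaks were in introns, 2 upstream, 2 downstream, 2 in a 3′ UTR and 1 in a noncoding exon. None was in a coding exon. Of the MR CORT peaks 7 were upstream, 7 in introns, 1 downstream and 1 in a 3′ UTR by the same annotation. The 2 GR and 2 MR CORT peaks of Dusp1 count as intronic there, although they lie upstream of its RefSeq start. Within 5 kb of the RefSeq start there were 7 GR and 6 MR peaks after CORT and 2 MR peaks after washout. The nearest transcription start was that of the member for 13 of 14 GR and 15 of 16 MR peaks after CORT, and the exceptions were the Mob2 peaks near Dusp8. After CORT the GR peaks here had a median width of 127.5 bp, against 121 bp over the list, and the MR peaks one of 52 bp, against 62 bp.

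Genes for other parts of the MAP kinase pathway were counted in the same way. Among 14 atypical DUSPs, which mostly lack the MAP kinase docking domain, 9 had a GR and 8 an MR peak after CORT, and 2 had an MR peak after washout. Dusp11, which acts on RNA, had most, with 5 GR and 8 MR peaks. Of the 10 MAP kinases 7 had a GR and 5 an MR peak after CORT, and Mapk3, which encodes an ERK, had 2 GR and 4 MR peaks. Of 6 Sprouty and Spred genes, which encode feedback inhibitors upstream of ERK, 2 had a GR and 3 an MR peak, with Spred2 having 1 GR and 3 MR peaks. Of 6 transcription factor genes induced by ERK, 4 had a GR and 3 an MR peak, with Fos having 3 GR and 2 MR peaks. Etv4 was the only gene of these lists with a GR peak after washout. After CORT a GR peak was listed for 80% of the DUSP MAP kinase phosphatases, 64.3% of the atypical DUSPs and 70% of the MAP kinases. The GR share was 33.3% for the feedback inhibitors, 66.7% for the transcription factors and 26.3% for all protein-coding genes. In the same order the MR shares were 70%, 57.1%, 50%, 50%, 50% and 30.2%. Each list was above all protein-coding genes for both receptors. The share with an MR washout peak within 20 kb depends on the distance and threshold as given above. It was 50% for the DUSP MAP kinase phosphatases, 14.3% for the atypical DUSPs and 20% for the MAP kinases. It was 0% for the feedback inhibitors and 33.3% for the transcription factors, against 14.2% of all protein-coding genes. Differences between these small lists were not tested.

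**Figure D4:**
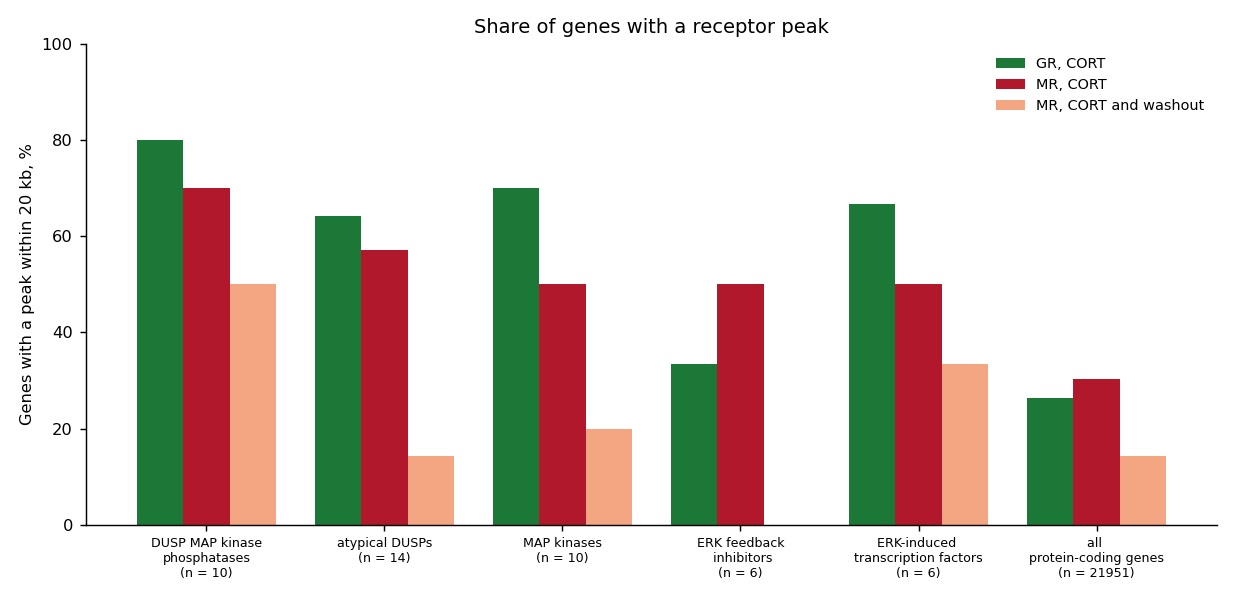
Percentage of genes with at least 1 peak in the gene body or within 20 kb, for the DUSP MAP kinase phosphatases, 4 other lists of pathway genes and all protein-coding genes. Bars are GR after CORT, MR after CORT and MR after washout, from 0. The DUSP MAP kinase phosphatases stand at 80%, 70% and 50%, and all protein-coding genes at 26.3%, 30.2% and 14.2%.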

How the data were processed

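GR and MR ChIP-nexus and input chromatin were measured for 3 treatments (9 samples, grouped by the receptor and treatment in their titles). The authors aligned quality-trimmed reads to GRCm38 (mm10), removed PCR duplicates by random barcode, filtered on mapping quality and called peaks on combined replicates against input. The submitters' processing notes name Bowtie2 and MACS2 2.1.1.20160309. The deposited −log10 values are those of p and q, the latter under a heading for fold enrichment, and the deposited score is 10 times −log10 q without its decimals. The deposited border pairs come from MACE with its p-value, except that the GR CORT border list has no p-value. These files hold no read counts, so the depth behind single peaks could not be used, and the intervals rest on the number of peaks alone.

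Summits were assigned to GENCODE M21 genes within 20 kb with Python 3.11.15, pandas 2.3.3 and numpy 2.4.6. Sequence was read with pysam 0.24.0 and motifs were counted within 100 bp of summits on the autosomes, X and Y. Distances are from the curated RefSeq start. Figures used matplotlib 3.10.9, and Wilson intervals (95%) used scipy 1.17.1. With 1 list per condition no test was made. The counting of peaks, overlaps and motifs was tested on simulated data and against direct counting. The 10 genes, the pathway lists and the questions were chosen with earlier results of these data known. All 10 genes are named, with at most 5 genes of each other list, those with most CORT peaks first, and any gene whose start was nearer to a peak. Alternatives changed the distance, the threshold on −log10 q, the assignment, the overlap and the motif. Spry3 was not found under that name in the annotation and is not analysed here, and 1 further list of pathway genes is not reported here.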

Additional observations from a re-analysis of the deposited data

How the results depend on the processing

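Of 114 recomputed values, 101 stayed within the margin set for them (1.5 times for a count, the 95% Wilson interval for a share) and 13 moved. Of the 101, 42 are counts or shares of 0 whose reported value is also 0 (vehicle peaks and GR peaks after washout), and 59 are others. Stricter settings cannot move a 0. Looser ones, such as 50 kb or any base of the peak, could have moved those counts and also gave 0. Keeping peaks with −log10 q of at least 5 left 7 GR CORT peaks, 9 MR CORT peaks and 2 MR washout peaks, at 2 genes. Within 50 kb there were 28 MR CORT and 11 MR washout peaks, and within 5 kb there were 3 MR washout peaks at 3 genes. Within 5 kb, 72.7% of the MR CORT peaks overlapped a GR CORT peak. The GRE share was 7.14% for GR and 12.5% for MR with at most 2 mismatches, and 78.6% and 81.2% with at most 4, by construction of a stricter or looser match. RefSeq in place of GENCODE gene bodies, an alternative chosen after seeing the data, left 15 MR CORT and 5 MR washout peaks, because the farthest Dusp1 peaks fell outside. Both of these counts stayed within the margin. A stricter threshold or a shorter distance can only lower a count of peaks, and a longer distance can only raise it. Why the overlap share was higher within 5 kb was not tested.

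No paired analysis was possible because the labels carry no replicate numbers and each condition has 1 list from combined replicates. Leaving out single replicates was not run for the same reason. The files give no read count behind a peak, a missing peak was not detectable at the threshold of its list, and a gene within 20 kb of a peak need not be regulated by it. No expression was measured in these files.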
